A study of Mus musculus with 12 samples.

Results

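To set the RXR agonist V-125 directly against bexarotene, RNA profiles of mammary tumors from mice fed either compound were compared with each other rather than with untreated tumors. The comparison takes 8 of the 12 tumors of the study, 4 from V-125-treated and 4 from bexarotene-treated mice, with the 4 control tumors serving to bring the data of both agonists to one scale and as the reference level. It covers the 497 genes for which values of both agonists were given, of 2876 genes listed for either one. A further 1092 genes were listed for V-125 only and 1287 for bexarotene only.

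All tumors arose in female MMTV-Neu mice, which carry the rat Neu (HER2) gene under the mouse mammary tumor virus promoter and develop mammary tumors driven by this receptor. The promoter is active mainly in mammary epithelium, so the model stands for tumors that start in that tissue. Mice whose tumors were still small were assigned at random to powdered control diet, to V-125 at 100 mg/kg diet or to bexarotene at 100 mg/kg diet, and tumors were harvested after 10 days. Both compounds were dissolved in the same ethanol and oil vehicle, and polyA-enriched libraries were made from 1 tumor per mouse. The age of the mice is not given in the sources used here.

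The retinoid X receptor (RXR) is a nuclear receptor that binds DNA together with a partner receptor, among them the retinoic acid receptors, the peroxisome proliferator-activated receptors (PPAR) and the liver X receptors (LXR). An RXR agonist, or rexinoid, can therefore switch on targets of several partners at once, including genes of lipid synthesis, and it acts on tumor cells as well as on macrophages and other cells of the tumor. Bexarotene is the rexinoid in clinical use, and V-125 is a newer one.

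Values are normalized counts, that is, reads per gene divided by a size factor for each tumor. For V-125 and control the value of every tumor was given. For bexarotene only the authors' mean over its 4 tumors was used, so it has no SD, and no test of the difference between the agonists was possible. Each difference is the log2 of (V-125 mean + 1) over (bexarotene mean + 1), set beside the SD of the 4 V-125 tumors on the same scale. A gene counts as different when the means differed at least 2-fold and all 4 V-125 tumors lay on one side of the bexarotene mean. Since a mean of 4 values cannot be exceeded more than 4-fold by any of them, and at least 1 of them lies at or below it, some limits on single bexarotene tumors follow without their values.

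Depth was similar among the V-125 tumors, with 17070644 to 19098630 reads on genes, against 15571690 to 22574865 in control, and the depth of the bexarotene tumors was not analysed here. Epcam, which marks luminal epithelium, was at 31904, 34948, 33497 and 28485 across the V-125 tumors and 53468, 40361, 37941 and 38238 across the control tumors, abundant but lower with V-125. The luminal keratins Krt8 and Krt18 had bexarotene means of 12215 and 13149.9 against 16888 and 19345 in control. Replicate 1 of the V-125 group stood apart for leukocyte genes. The 4 members of a T, B and NK cell gene list that were listed for V-125 summed to 322, 19.9, 29.8 and 4.23 in its replicates 1 to 4, and to 0 to 7.19 in control. Differences of the leukocyte genes on opposite sides of control are therefore given with and without this tumor. Other leukocyte results, list medians among them, include it. In bulk tumor tissue, fewer cells of a type and less RNA per cell cannot be told apart.

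Most genes listed for both agonists were at nearly the same level with either. Each of these genes is listed because it differed from the same 4 control tumors with both agonists, so the likeness is in part fixed by that selection. It does not extend to genes listed for one agonist only. The median difference over the 497 genes was 0.03 on the log2 scale, with quartiles of −0.13 and 0.26. For 427 of the 497 genes the means were within 1.5-fold of each other. The median size of the difference, 0.19, was smaller than the median SD of 0.43 among V-125 tumors, and for 364 genes the difference was under 1 SD. In 396 genes the V-125 tumors lay on both sides of the bexarotene mean. The 4 V-125 tumors were all above it in 47 genes (9.46% of the 497) and all below it in 54 (10.9%).

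Only 21 genes (4.23%) met the criterion of a difference, 15 with the higher level in V-125 tumors (3.02%) and 6 with the lower (1.21%). The differences of 13 of the 21 were at least 2 SD of the V-125 tumors. Just inside the 2-fold limit were C230035I16Rik (−1.11) and Tubb2b (1.11), and just outside it was Aldh1a3 (−0.99). With a V-125 tumor left out, only the remaining ones had to lie on one side, a looser rule that takes in more genes by itself. Without V-125 replicate 4 this rule took in 34 genes, 25 of them higher with V-125, and without replicate 1 or replicate 3 it took in 14 or 11 genes with the lower level.

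**Figure D1:**
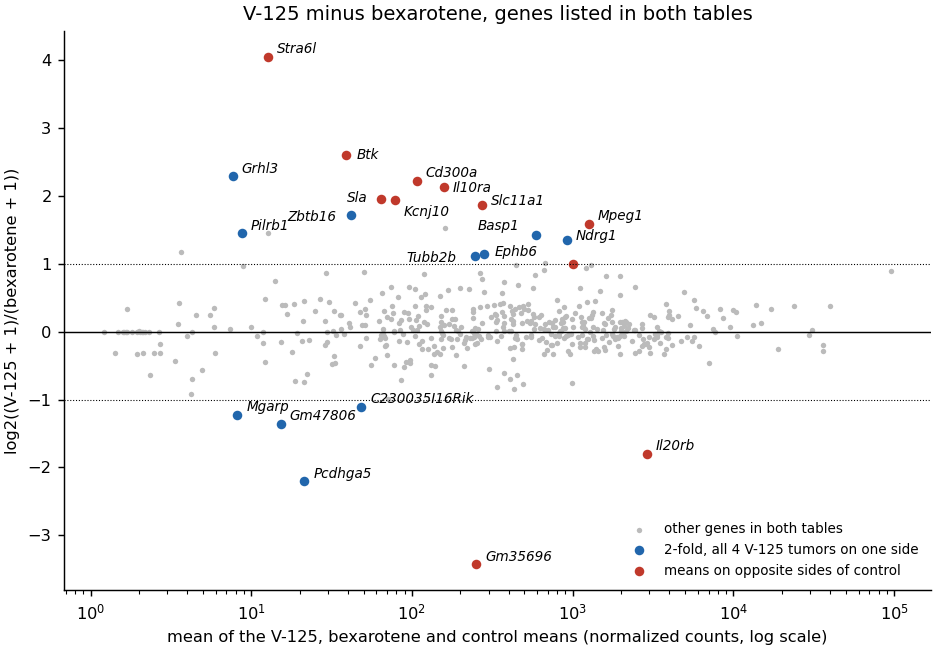
Difference between V-125 and bexarotene tumors for the 497 genes listed for both, as log2((V-125 mean + 1)/(bexarotene mean + 1)) on the y axis, against the mean level in normalized counts on a log x axis. Dotted lines mark 2-fold, grey points are the remaining genes, blue points meet the criterion with both means on the same side of control, and red points are the 11 genes whose means lay on opposite sides of control. The cloud is centred near 0 and the red points lie at its edges, from Stra6l at 4.05 to Gm35696 at −3.43.

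Of the 21 genes, 10 were ones that the agonists left on opposite sides of control. Over all 497 genes, 486 had both means on the same side of control and 11 (2.21%) on opposite sides. The same 4 control tumors stand behind both lists, and each gene is listed because it differed from them, so the count of 486 carries no evidence of its own. Median differences were small on either side of control. Of the 263 genes below control with both, the V-125 mean was the higher in 162 (median difference 0.08), and of the 223 above control with both, in 102 (median −0.03). In 9 of the 11 genes the V-125 mean was above control and the bexarotene mean below it, among them Slc11a1, Mpeg1, Il10ra, Btk, Cd300a, Sla, Kcnj10 and Stra6l. The other two, Il20rb and Gm35696, had the reverse. Of the 11, 10 also met the 2-fold criterion.

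Several of the 9 are known from macrophages and other leukocytes. Slc11a1 (chr1:74375195-74386062 on GRCm38) encodes a metal transporter of the phagocyte lysosome. In replicate order the V-125 tumors held 839, 338, 332 and 318 normalized counts and the control tumors 257, 321, 144 and 216, against a bexarotene mean of 124. The V-125 mean was thus 3.67-fold the bexarotene mean, a log2 difference of 1.87 (SD 0.67, n = 4) that was 1.40 without replicate 1. Replicates 2 to 4 lay close together, all far above the bexarotene mean, and replicate 4 alone was below the highest control tumor.

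Mpeg1 (chr19:12460779-12465284) encodes the pore-forming macrophage protein perforin-2. Its levels were 3515, 1898, 1452 and 998 with V-125 and 1493, 1313, 756 and 1065 with control diet, and the bexarotene mean was 653. Every V-125 tumor was above that mean, by 1.59 on average (SD 0.76) and by 1.15 without replicate 1, while the V-125 and control tumors overlapped.

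Il10ra (chr9:45253837-45269149), the ligand-binding chain of the interleukin-10 receptor, reached 713, 173, 149.9 and 108 in V-125 tumors, 178, 138, 91.8 and 86.2 in control and a mean of 64.4 with bexarotene. Here replicate 1 was more than 4 times any other V-125 tumor. The difference of 2.13 (SD 1.20) came to 1.14 without it. Btk (chrX:134542336-134583570), a tyrosine kinase of B cells and myeloid cells, had the same shape, with 191, 35.1, 44.7 and 24.3 in V-125 tumors, 39.2, 46.2, 22.4 and 18.8 in control tumors and a bexarotene mean of 11.4. Its difference was 2.59 (SD 1.28) with replicate 1 and 1.53 without.

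Cd300a (chr11:114890041-114904654), an inhibitory receptor of leukocytes, was spread more evenly over the V-125 tumors, at 369, 183, 127 and 63.4, with 113, 120.2, 63.9 and 84.5 in control and 39.0 as the bexarotene mean (difference 2.22, SD 1.05, and 1.65 without replicate 1). For Sla (chr15:66780819-66831829), an adaptor that dampens antigen receptor signaling, the V-125 tumors held 190.1, 107, 66.5 and 66.6, the control tumors 42.7, 68.2, 52.7 and 69.1, and the bexarotene mean was 27.0 (difference 1.96, SD 0.71, and 1.54 without replicate 1). In both genes the lowest V-125 tumor was still above the bexarotene mean, yet below at least 2 of the 4 control tumors.

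Kcnj10 and Stra6l are not leukocyte genes by their known roles. Kcnj10 (chr1:172341210-172374085), an inwardly rectifying potassium channel best known from glia and kidney, was at 202, 128, 115 and 73.0 in V-125 tumors, 96.8, 89.0, 44.7 and 56.3 in control tumors and 33.1 with bexarotene, a difference of 1.94 (SD 0.60) that replicate 1 moved little (1.64 without it). Stra6l (chr4:45848664-45887008), a receptor for retinol-binding protein, had the largest difference of all 497 genes, 4.05 (SD 2.28), but on few reads. Its V-125 tumors held 93.0, 15.2, 7.94 and 1.06 and its control tumors 11.5, 8.09, 3.99 and 7.68, against a bexarotene mean of 0.83. Summed over tumors this was 116 reads against about 3 normalized counts, a ratio of 38.7 with a 95% exact interval of 12.9 to 190.2 that covers counting error only. Without replicate 1 the difference was 2.31, and replicate 4 was hardly above the bexarotene mean.

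V-125 replicate 1 was the highest of the 4 V-125 tumors in all 9 of these genes, against 31.4% of the 497 genes. With this tumor left out, the mean of the others was still above control in all 9, and the differences from bexarotene of the 8 genes named ran from 1.14 to 2.31. None of the 9 separated V-125 from control tumors without overlap. The bexarotene mean lay outside the control range, on its low side, in 8 of the 9, which are the 8 genes named. A mean and single tumors are unlike measures here. In the same 8 genes the V-125 mean lay above every control tumor. It was 1966 for Mpeg1 and 286 for Il10ra, with the highest control tumors at 1493 and 178.

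**Figure D2:**
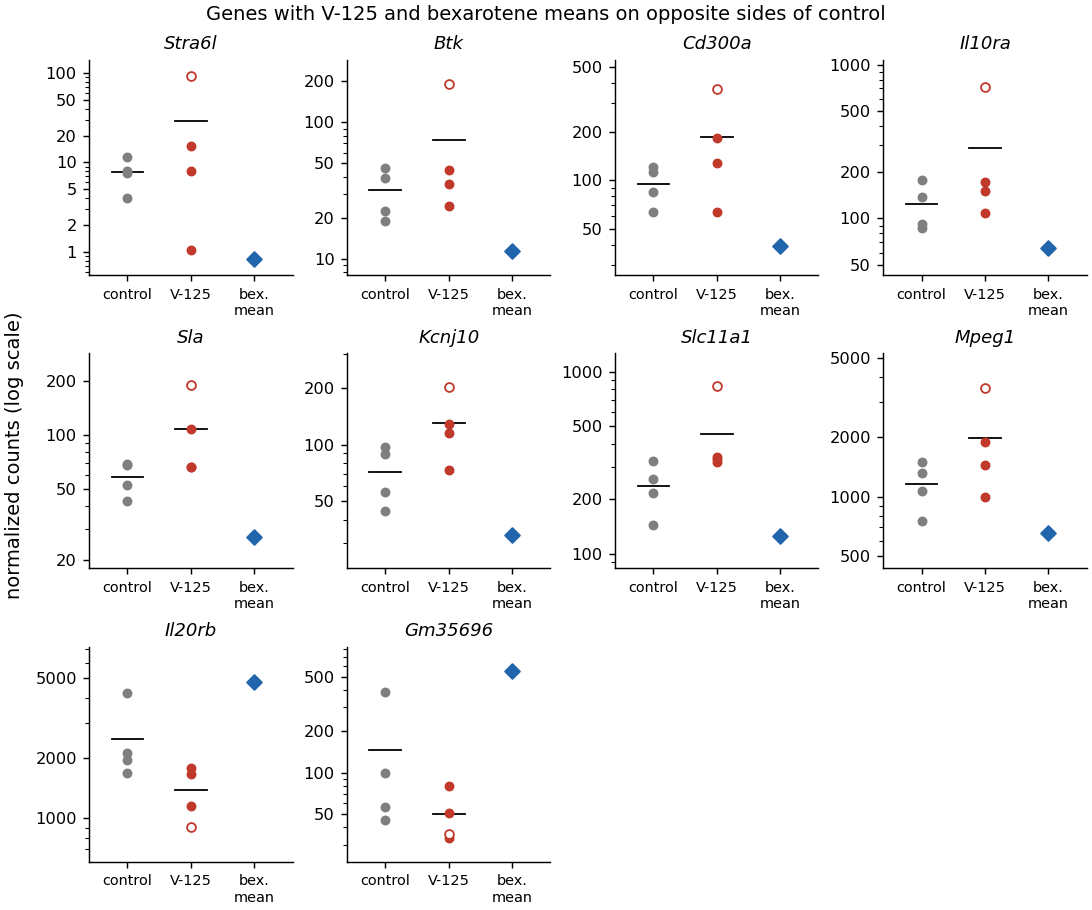
Normalized counts on log y axes, whose range differs by panel, for 10 of the genes whose V-125 and bexarotene means lay on opposite sides of control. Grey points are the 4 control tumors, red points the 4 V-125 tumors with replicate 1 drawn open, horizontal bars the group means, and the blue diamond is the bexarotene mean, which has no error. In the first 8 panels every V-125 tumor sits above the diamond and replicate 1 is on top, and in the last 2 every V-125 tumor sits below it.

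Since Slc11a1, Mpeg1, Btk and Cd300a were apart in the same direction, the 250 bases before their RefSeq transcription start (GRCm38.p6, 5′ to 3′ on the gene's strand) are shown. Capitals mark 2 short motifs searched on both strands, GAGGAA, the core letters bound by the myeloid factor PU.1, and AGGTCA, the half-site of nuclear receptors.
Slc11a1: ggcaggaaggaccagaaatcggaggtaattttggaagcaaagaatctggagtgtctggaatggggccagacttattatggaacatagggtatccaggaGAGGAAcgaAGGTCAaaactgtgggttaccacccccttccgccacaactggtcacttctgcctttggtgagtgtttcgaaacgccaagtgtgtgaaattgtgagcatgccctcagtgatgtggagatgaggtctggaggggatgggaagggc
Cd300a: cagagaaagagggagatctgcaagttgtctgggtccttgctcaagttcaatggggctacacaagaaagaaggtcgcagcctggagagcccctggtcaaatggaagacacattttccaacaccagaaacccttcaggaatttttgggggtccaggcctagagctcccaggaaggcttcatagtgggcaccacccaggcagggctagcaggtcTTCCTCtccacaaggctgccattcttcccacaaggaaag
Mpeg1: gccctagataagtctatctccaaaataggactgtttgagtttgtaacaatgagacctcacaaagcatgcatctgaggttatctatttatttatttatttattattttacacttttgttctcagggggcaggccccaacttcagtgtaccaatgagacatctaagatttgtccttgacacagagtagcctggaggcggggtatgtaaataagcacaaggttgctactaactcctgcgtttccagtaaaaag
Btk: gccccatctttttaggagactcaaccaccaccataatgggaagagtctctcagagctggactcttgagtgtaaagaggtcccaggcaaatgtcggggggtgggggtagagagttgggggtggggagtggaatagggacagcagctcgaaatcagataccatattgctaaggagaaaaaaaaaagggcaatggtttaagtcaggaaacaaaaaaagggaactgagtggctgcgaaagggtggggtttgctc
The stretches are chr1:74374953-74375202, plus strand for Slc11a1, chr11:114889791-114890040, plus strand for Cd300a, chr19:12460520-12460769, plus strand for Mpeg1 and chrX:134583141-134583390, minus strand for Btk. Slc11a1 holds both motifs within a few bases of each other and Cd300a holds the first one on the other strand, while neither is in the windows of Mpeg1 and Btk, the latter of which lies inside the deposited span of its gene. Of all 32851 promoter windows of this length, 23.3% hold GAGGAA and 14.0% AGGTCA, so single matches are common. Windows were found for 14 genes on opposite sides of control or past the criterion. Of these, 3 held GAGGAA (Slc11a1, Cd300a and the epithelial gene Grhl3) and 1 held AGGTCA (Slc11a1).

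Il20rb (chr9:100457719-100486788) was the abundant gene with the opposite pattern. It encodes a chain shared by the receptors for interleukins of the IL-20 group, which act on epithelium. Its level was 911, 1148, 1659 and 1795 across the V-125 tumors and 1681, 2120.1, 4225 and 1951 across the control tumors, while the bexarotene mean was 4795. Each V-125 tumor was below that mean, which was 3.48-fold the V-125 mean (difference −1.80, SD 0.46), and below control replicates 2 to 4, with replicate 4 alone above control replicate 1. Gm35696 (chr10:121506623-121526101), a predicted gene with no known role, was at 35.8, 51.3, 33.8 and 80.4 in V-125 tumors and 551 as the bexarotene mean, a difference of −3.43 (SD 0.57). Its control tumors ranged from 45.2 to 389.6, the highest being replicate 2 alone, so the V-125 tumors overlapped control in both genes.

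The other 11 of the 21 genes were on the same side of control with both agonists and differed in extent. In 6 of them, Grhl3, Zbtb16, Basp1, Ndrg1, Ephb6 and Tubb2b, both means were below control and the bexarotene mean was the lower. Ndrg1 (chr15:66929318-66969640), a gene induced by hypoxia and in differentiation, was at 1252, 998, 571 and 376 in V-125 tumors, 2924, 1186, 952 and 1501 in control tumors and 313 with bexarotene (difference 1.35, SD 0.78). Basp1 (chr15:25363277-25413764), a membrane-bound signaling protein best known from neurons, was at 625, 313, 654 and 164 in V-125 tumors and 2105, 1366, 465 and 729 in control tumors, with a bexarotene mean of 164 (difference 1.42, SD 0.94). In both genes 2 V-125 tumors were within the control range, while V-125 replicate 4 was close to the bexarotene mean, which was below every control tumor.

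Zbtb16 (chr9:48654297-48836222), which encodes the transcriptional repressor PLZF, held 22.5, 20.9, 11.9 and 44.4 in V-125 tumors and 184, 138, 29.6 and 18.8 in control tumors, with a bexarotene mean of 6.90 (difference 1.71, SD 0.74). Ephb6, a kinase-inactive ephrin receptor (287, 211, 388 and 218 with V-125 against 124.8), and Tubb2b, a beta-tubulin (141, 208, 377 and 133 against 99.1), differed by 1.14 and 1.11 and no longer met the criterion without V-125 replicate 3. These 2 genes and Pilrb1 were named after their values were seen.

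Grhl3 (chr4:135541888-135573630), a transcription factor of the epithelial barrier, was the gene in which the limit on single bexarotene tumors could be used most fully. V-125 tumors held 2.04, 4.75, 10.9 and 3.17 and control tumors 35.7, 12.7, 11.2 and 10.2, and the bexarotene mean was 0.28. All 4 V-125 tumors exceeded 4 times that mean, so no bexarotene tumor can have reached any of them, and this held for no other of the 497 genes. The counts were small, 21 reads in V-125 tumors against about 1 normalized count in bexarotene tumors, a ratio of 21 with a 95% exact interval of 3.38 to 868. The log2 difference of 2.29 was 0.95 with a pseudocount of 5 and 3.82 with 0.1.

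In the other direction, Pcdhga5, a gamma-protocadherin of a cluster of closely related genes whose reads may be shared, was at 0, 0.95, 7.94 and 1.06 in V-125 tumors and 15.1 with bexarotene, both below control (difference −2.20, SD 1.33). Mgarp, a mitochondrial protein induced in hypoxia, had no read in any V-125 tumor. Its control tumors held 26.5, 4.62, 22.4 and 39.3, and its bexarotene mean was 1.34. That mean was 1.78-fold higher than V-125 if 3 counts over the V-125 group are taken as the most that a count of 0 allows. The ratio takes the bexarotene mean as exact, though it rests on about 5 normalized counts in all, so it is no lower limit. Above control with both agonists were Pilrb1, a gene of an activating leukocyte receptor (31.7, 8.55, 26.8 and 11.6 with V-125 and 6.56 with bexarotene), and, with the bexarotene mean the higher, the non-coding genes Gm47806 (10.2, 6.65, 14.9 and 14.8 against 31.4) and C230035I16Rik (43.9, 44.6, 36.7 and 36.0 against 88.0). Gm47806 is annotated as antisense, and whether reads were counted by strand is not given in the sources used here, so reads of its partner cannot be told apart from its own.

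Some smaller differences also had all 4 V-125 tumors on one side. Aldh1a3, an enzyme that makes retinoic acid, was at 28.6, 11.4, 2.98 and 22.2 in V-125 tumors and 33.4 with bexarotene, with control tumors from 39.1 to 224. Both agonist means were thus far below control, and the V-125 mean was the lower (difference −0.99, SD 1.29). Apln, the endothelial peptide apelin, was lower than control with both agonists and lower with V-125 (51.1, 76.9, 83.4 and 74.0) than with bexarotene (112; difference −0.64). Trim9, a ubiquitin ligase (287, 349, 535 and 584 against 685; difference −0.64), Tmigd1, an adhesion protein (128, 73.1, 48.7 and 78.3 against 136; −0.72), and Cyp2b19, a cytochrome P450 of keratinocytes (28.6, 12.3, 34.8 and 11.6 against 37.0; −0.74), were above control with both and lower with V-125.

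Among genes the study had singled out for V-125, the direct difference was within the spread of the tumors for Lrrc26 and Nrg1 and beyond 1 SD for Nfasc. Nrg1, a ligand of the HER3 and HER4 receptors, was at 197, 63.6, 103 and 321 in V-125 tumors, 19.6, 1.16, 7.19 and 6.83 in control tumors and 108 as the bexarotene mean. The V-125 tumors were all above the control tumors, and so was the bexarotene mean. The V-125 tumors straddled that mean, 2 above it, with a difference of 0.65 (SD 1.02) and single tumors at −0.76 to 1.56. Nfasc, a cell adhesion protein of axons, was at 708, 992, 334 and 1059 in V-125 tumors against 389.6 with bexarotene, with 3 of 4 tumors above (difference 0.99, SD 0.76, single tumors at −0.22 to 1.44). Its difference was 1.24 without replicate 3 and then met the 2-fold criterion, which asked only for the remaining tumors on one side. Lrrc26, an auxiliary subunit of potassium channels, differed by 0.38 (SD 0.40, single tumors at −0.16 to 0.82), again with 3 of 4 tumors above. Chil1, a secreted chitinase-like protein, was listed for V-125 only, at 11411, 6135, 7092 and 7116 in V-125 tumors and 4715, 1914, 1961 and 1398 in control tumors, so it could not be set against bexarotene.

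Of the genes of lipid synthesis, which RXR agonists are known to switch on, those listed for both agonists were mostly nearly alike in level. Of 20 cholesterol synthesis genes, 5 were listed for V-125 only and 1 for bexarotene only, all higher than control, and could not be compared between agonists. Another 12 were listed for both, all 12 above control with either agonist, and none met the criterion of a difference. Their median difference was 0.06, beside 0.03 over all 497 genes, and all 12 differences were under 1 SD of the V-125 tumors. The V-125 tumors themselves were far apart. Sqle, the squalene epoxidase, was at 936, 1691, 1627 and 2231 in replicates 1 to 4 against a bexarotene mean of 1575, and Cyp51, the lanosterol demethylase, at 655, 1342, 1291 and 1846 against 1126. Replicate 1 was the lowest and replicate 4 the highest V-125 tumor in all 12 genes, with medians of −0.86 and 0.50 relative to the bexarotene mean, while replicates 2 and 3 were at 0.10 and 0.02. Over the 497 genes replicate 1 was the lowest in 33.4% and replicate 4 the highest in 26.0%.

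Insig1, a sterol sensor (1287, 2142, 2011 and 4531 with V-125 and 1990.4 with bexarotene), likewise had replicate 1 lowest and replicate 4 highest, and was above control with either agonist. Of 13 fatty acid synthesis genes, 2 were listed for both, and of 13 desaturation and elongation genes 5, with the higher mean in V-125 tumors for 2 of the 2 and 4 of the 5, where 54.9% of the 497 genes had it so. Fasn, the fatty acid synthase, was at 12988, 20694, 19041 and 21867 in V-125 tumors, 11193, 6349.9, 8279 and 9473 in control tumors and 14210.5 with bexarotene. Of the V-125 tumors 3 were above the bexarotene mean and replicate 1 was below it, at a difference of 0.39 (SD 0.34). Scd1, the main stearoyl-CoA desaturase, was at 181716, 107313, 212914 and 128970.0 in V-125 tumors, 88995, 31481, 11716 and 47010.5 in control tumors and 84896 with bexarotene. Its difference of 0.89 (SD 0.45) was the largest among these lipid genes and under 2-fold. Reads of Scd1, Scd2 and Scd3 may be divided among these close paralogs, and Scd2 differed by 0.33 and Scd3 by −0.09, the latter with all 4 V-125 tumors below. Gpam, the first enzyme of triglyceride synthesis, was at 539.6, 528, 507 and 564 against 447 (difference 0.26), all 4 above, and with Lpcat3 it was one of 2 genes listed for both out of 16 of triglyceride and phospholipid synthesis (median 0.19).

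Over 4 lists of sterol and fatty acid genes together, 21 of 60 genes were listed for both agonists, 20 of them above control with both, with a median difference of 0.12 and none meeting the criterion. The exception below control was Fads3 (249, 94.0, 126 and 77.2 with V-125 and 129 with bexarotene). A further 12 members were listed for V-125 only, all higher than control, and 2 for bexarotene only, also higher. For PPAR targets 2 of 17 genes were listed for both, Cpt1a and Ehhadh, which carry out fatty acid oxidation, with differences of 0.05 and 0.03. For LXR targets they were Scd1 and Lpcat3 (0.13), 2 of 12.

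**Figure D3:**
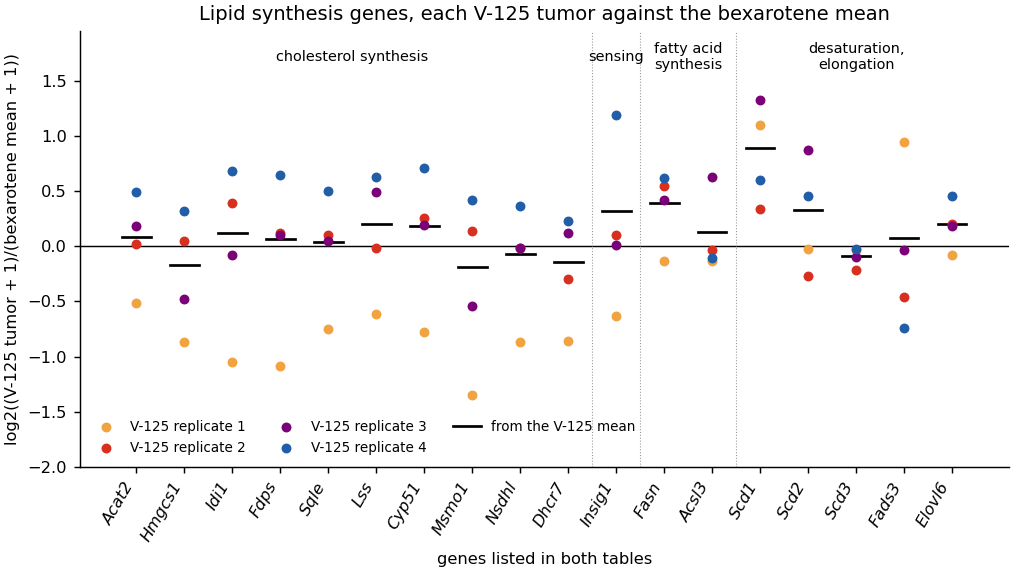
Log2 difference between each V-125 tumor and the bexarotene mean (y axis) for 18 of the 21 sterol and fatty acid genes listed for both agonists (x axis, grouped by list). Colours stand for V-125 replicates 1 to 4, black bars for the difference from the V-125 mean, and the line at 0 for the bexarotene mean. Replicate 1 is lowest and replicate 4 highest in each cholesterol synthesis gene drawn, the black bars stay near 0, and Scd1 is the one gene whose bar comes close to 1.

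Of 34 genes of the hypoxia response and glycolysis, 9 were listed for both agonists, all 9 below control with either, at a median difference of 0.10. Ndrg1 and Mgarp, described above, met the criterion in opposite directions. The pH regulator Car9 was at 228, 302, 297 and 409 in V-125 tumors, 824, 501, 424 and 767 in control tumors and 363 with bexarotene, and the glycolytic enzyme Pgk1 at 4276, 5377, 3577 and 6075 in V-125 tumors, 8315, 5274, 6281 and 7595 in control tumors and 4511 with bexarotene. Their differences of −0.23 and 0.10 were smaller than the SD of the V-125 tumors, 0.34 and 0.34.

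Of 24 epithelial junction and barrier genes, 5 were listed for both agonists, Cldn3, Cldn4, Cldn7, Grhl3 and Prss22. All 5 were below control with either agonist and had the higher mean with V-125, where 54.9% of the 497 genes did, with a median difference of 0.32 and a range from 0.03 for Prss22 to 2.29 for Grhl3. Cldn4, a tight junction claudin, was at 1233, 1209, 1569 and 518 in V-125 tumors, 1895, 1747, 1698 and 2265 in control tumors and 592 with bexarotene (difference 0.93, SD 0.70). Its relative Cldn7 was at 2393, 2776, 3368 and 2450.1 against 2319, a difference of 0.24 (SD 0.23). Of the same list, Dsg2, a desmosomal cadherin, and Grhl1, a relative of Grhl3, were listed for bexarotene only and were higher than control, at 3608 against 2387 and 4269 against 3331, while 4 others, the luminal keratins given above among them, were lower. Listed for V-125 only were Cdh1 and Ocln, both lower than control, with V-125 means of 5697 against 7523 and 696 against 882. The part of the epithelial share of the tumors in these values was not tested. Milk and secretory genes had 3 of 16 listed for both and a median of 0.38. Of these, the whey protein gene Wap (0.64) and the milk fat globule gene Mfge8 (0.37) were below control with both, and Car6, a secreted carbonic anhydrase (0.38), above it.

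The matrix and heat shock lists had medians near the 0.03 of all 497 genes, with single genes further apart. Of 62 fibroblast and matrix genes, 8 were listed for both, at a median of 0.04. Col16a1 stood out among them with 1337, 948, 1571 and 668 in V-125 tumors against 573 with bexarotene, 4 of 4 above and a difference of 0.98 (SD 0.55), while the cartilage matrix gene Comp was above control at like levels, 8382, 21239, 33186 and 21612 against 19314 (0.13), its control tumors being at 791, 7270.0, 4500.4 and 3775. Of 23 heat shock genes, 4 were listed for both, at a median of −0.02, and Hspb1, a small heat shock protein, was the one with a sizeable difference (2115, 1088, 1842 and 643 against 801; 0.83, SD 0.78). Medians were 0.12 for 3 of 26 interferon response genes, 0.10 for 4 of 29 endothelial genes, 0.47 for 3 of 54 interleukin and TNF family genes (Il10ra, at 2.13, among them), and −0.23 for 2 of 29 immediate early genes. The 2 members each of the ERBB, amino acid and ER stress, and circadian lists had medians of 0.19, 0.02 and 0.01. No chemokine, chemokine receptor, antigen presentation, cell cycle or lymphocyte list member was listed for both. Of the 22 genes of the retinoid list only Aldh1a3 was listed for both, and that list does not hold Stra6l or Sdr16c5.

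**Figure D4:**
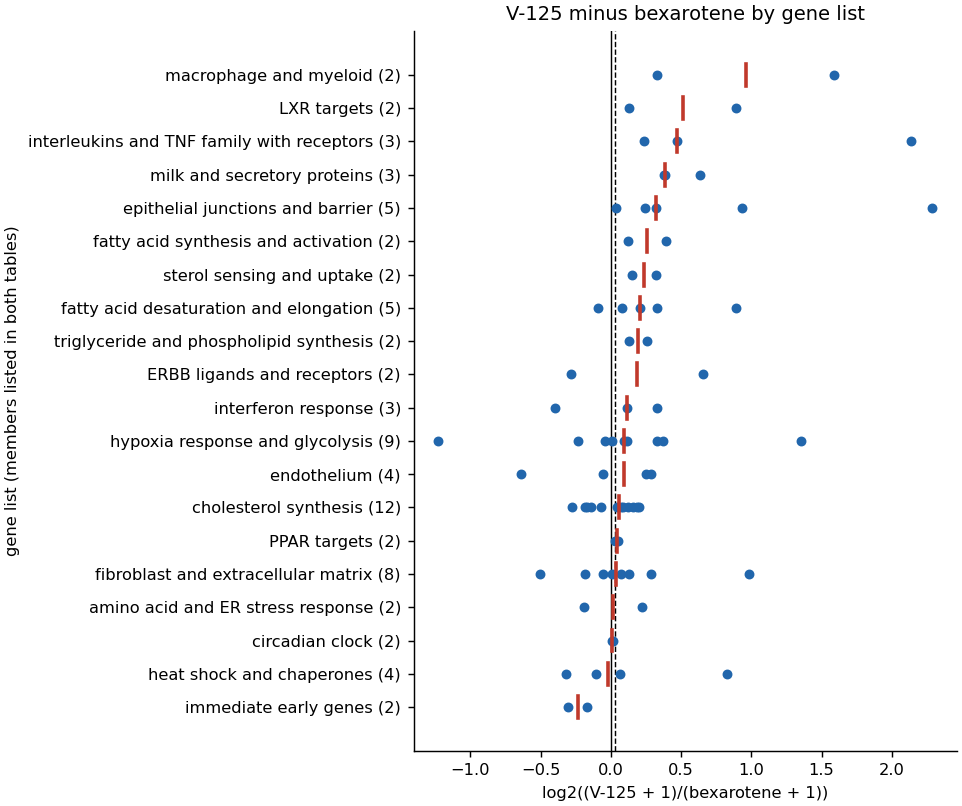
Difference between V-125 and bexarotene means, as log2((V-125 + 1)/(bexarotene + 1)), for members of gene lists with at least 2 genes listed for both agonists. Points are genes, red bars list medians, the solid line is 0 and the dashed line the median of all 497 genes, 0.03, with the number of members in brackets. Most medians lie between −0.23 and 0.38, and the macrophage and myeloid median of 0.96 rests on 2 genes.

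Among genes at least 2-fold from control with both agonists, those with the smallest differences were picked by rule, so that their likeness is a description only. Of these, Ccdc85a, Hapln3, Gm6297, Sdr16c5 and Eepd1 differed between agonists by −0.01, 0.01, −0.01, −0.01 and 0.01. Hapln3, a link protein of hyaluronan matrix, was at 3.07, 15.2, 17.9 and 18.0 in V-125 tumors, 127, 64.7, 35.1 and 51.2 in control tumors and 13.4 with bexarotene. Sdr16c5, a retinol dehydrogenase, was at 8.18, 77.9, 83.4 and 46.5 with V-125, 80.7, 238, 113 and 62.3 in control and 54.4 with bexarotene. Single V-125 tumors still ranged over −1.83 to 0.39 and −2.59 to 0.61 around the bexarotene mean, so likeness of the means says nothing closer than that.

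Genes listed for one agonist only could not be set against the other, because a gene is listed only where its difference from control passed an unadjusted p-value of 0.05, and no value for the other agonist was analysed here. Their distance from control is in part fixed by that selection. Of the 1092 genes listed for V-125 only, 53.6% were higher than control, and of the 1287 for bexarotene only, 42.5%. Myeloid genes divided by agonist and direction. Of 50 macrophage and myeloid genes, 7 were listed for V-125 only, all 7 higher than control, and 12 for bexarotene only, all 12 lower than control. The 7 were Mertk, Fcgr1, Fcgr3, Clec7a, Clec10a, Tlr1 and Tlr13, receptors of phagocytes. They summed to 2087, 835, 702 and 491 across the V-125 tumors and to 427 to 613 in control, and replicate 1 was the highest V-125 tumor for each of the 7, against 41.5% of all genes listed for V-125 only. Of the other V-125 tumors, replicate 4 lay within the control range and replicates 2 and 3 above it.

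The 12 on the bexarotene side included all of the C1q chains, the macrophage growth factor receptor Csf1r and the signaling adaptor Tyrobp. Their means were 752 with bexarotene and 2023 in control for C1qa, 454 and 806 for Csf1r, and 141 and 329 for Tyrobp, and the 12 summed to 3651 and 8413. Of the 7 defining macrophage markers, 5 were in this group (Csf1r, Cd68, C1qa, C1qb and C1qc), Mertk was listed for V-125 only, and Adgre1 for neither. The same bexarotene tumors thus had lower means of macrophage markers and of the leukocyte genes on opposite sides of control, and the part of cell numbers in that difference was not tested. Antigen presentation genes added 7 of 20 for bexarotene only, all lower than control, such as H2-Eb1 (6.87 against 26.7), a chain of MHC class II, and none for V-125 only. The 2 myeloid genes listed for both were Mpeg1, above, and the integrin Itgam, below control with both at 31.7, 45.6, 60.6 and 30.7 in V-125 tumors and 33.3 with bexarotene.

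Few lymphocyte genes were listed, most of them for V-125 and with high values in 1 tumor. Of 40 T, B and NK cell genes, 4 were higher than control for V-125 only (Cd2, Cd28, Icos and Pdcd1, surface receptors of T cells) and 1 lower for bexarotene only (Zap70). Cd2 was at 195, 10.4, 23.8 and 3.17 across V-125 tumors and 0, 1.16, 5.59 and 0.85 across control tumors, and replicate 1 was the highest V-125 tumor for all 4 genes. In replicate order Cd28 was at 65.4, 3.80, 5.96 and 0 with V-125, Icos at 34.7, 2.85, 0 and 1.06, and Pdcd1 at 26.6, 2.85, 0 and 0. Their highest control tumors were at 2.31, 0.80 and 1.16. Cd2 was the only one listed of 6 T cell markers, and none of the B cell, plasma cell, NK cell or neutrophil markers was listed for either agonist. Of the markers of all cell types, 22 of 66 were listed. Among them were all 4 hemoglobin genes, each lower than control wherever listed, such as Hbb-bt with 203, 58.9, 36.7 and 71.9 in V-125 tumors, 149, 134, 343 and 107 in control tumors and 64.9 with bexarotene. Of 19 chemokine receptors, 2 were listed, Ccr1 and Cx3cr1, both for V-125 only and higher than control, and replicate 1 was the highest V-125 tumor for neither. Of 31 chemokines, 3 were listed for V-125 only, 1 higher and 2 lower, and 2 for bexarotene only, both lower.

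Of 29 endothelial genes, 10 were listed for V-125 only, all higher than control, against 2 for bexarotene only, Icam1 and Vcam1, both lower. Another 4 were listed for both agonists, 3 of them below control with either and 1 above, and 13 were not listed. Of 5 endothelial markers only 1, Kdr, was listed. Kdr, the main VEGF receptor, was at 539, 835, 793 and 775 in V-125 tumors and 251, 453, 429 and 498 in control, all 4 above all 4. The 10 genes summed to 5796, 5253, 5032 and 4515 in V-125 tumors and 2740.4 to 3519.6 in control. Fatty acid synthesis showed a like imbalance, with 5 genes higher for V-125 only (Acly, Acaca, Acacb, Acss2 and Mid1ip1) and none for bexarotene only. Immediate early genes numbered 6 for bexarotene only, all lower (among them Fos, Junb and Klf4), against 2 higher and 2 lower for V-125 only. Hypoxia and glycolysis genes numbered 5 lower for bexarotene only, with the lactate exporter Slc16a3 at 7.97 against 75.4 in control, and 2 higher and 2 lower for V-125 only.

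**Figure D5:**
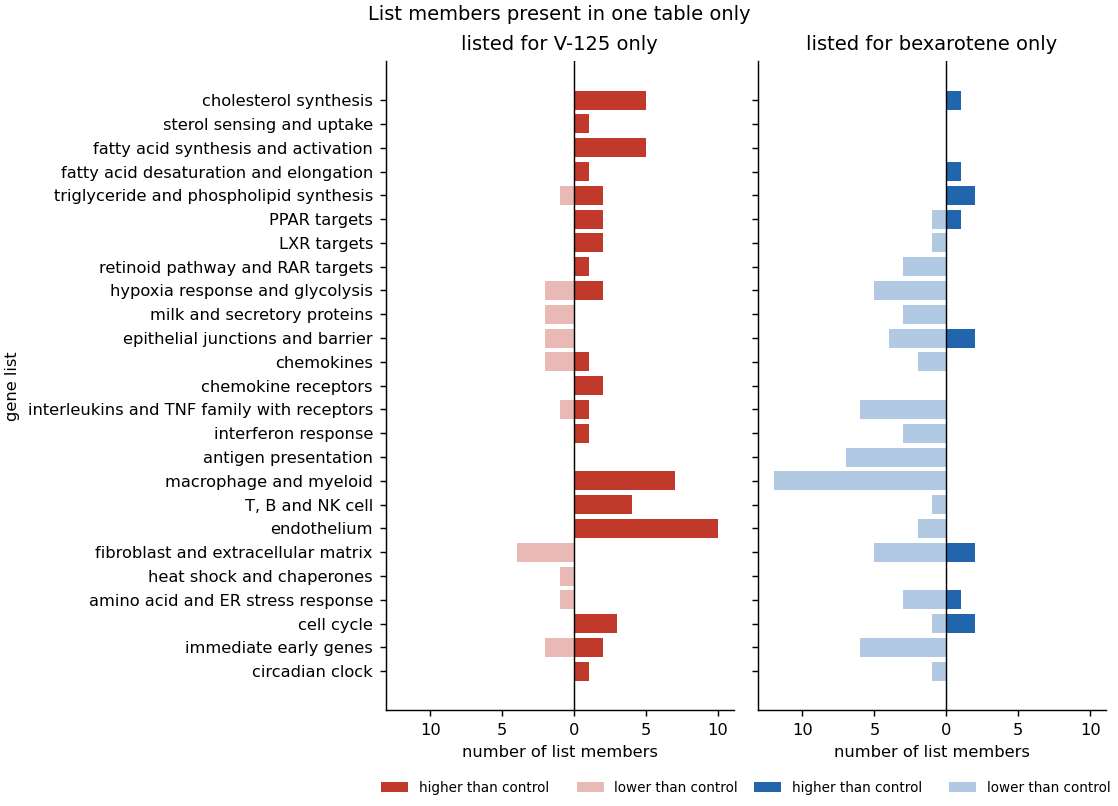
Number of members of each gene list (y axis) that were listed for V-125 only (left) or for bexarotene only (right). Bars to the right of 0 count genes higher than control and paler bars to the left genes lower than control. The longest bars are 10 endothelial genes higher with V-125 and 12 macrophage and myeloid genes lower with bexarotene.

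The largest changes confined to one list were, for V-125, increases of Sox14, Scgb1b27, Ly6k, Cd2 and Apod and decreases of Trp63, Armh4, Ahsg, Kcne3 and Csn1s1. Sox14, a developmental transcription factor, was at 81.8, 0, 319 and 519 in V-125 tumors and at 0 in all control tumors, and Scgb1b27, a secretoglobin, at 1844, 76.0, 325 and 52.9 in V-125 tumors and 0, 6.94, 17.6 and 11.1 in control. Values of the V-125 tumors thus spanned a wide range, with 1 tumor at 0 for Sox14. Trp63, the p63 factor of basal epithelium, was at 0, 25.6, 27.8 and 8.46 against 80.7, 105, 27.2 and 74.3. For bexarotene the increases were A830018L16Rik, Gabra4, Fbln1, Eya1 and Fam19a5, and the decreases Slpi, 2210407C18Rik, Sftpd, Slc16a3 and Wnt7b. Gabra4, a GABA receptor subunit, had a mean of 411 against 44.5 in control, Eya1, a developmental phosphatase, 614 against 101, and Slpi, a secreted protease inhibitor, 11.5 against 178.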

How the data were processed

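RNA of 12 mammary tumors was sequenced, and 8 tumors with single values (V-125 and control) and the bexarotene group mean were analysed. Per the submitters' processing notes, reads were processed with STAR 2.6.1d, featureCounts 1.5.0-p3 and limma, and the genome build is not given in the sources used here. For V-125 and control the authors deposited raw read counts, normalized counts (a signal, the count divided by a size factor per tumor) and FPKM. For bexarotene the deposited group means of normalized counts were used, and values of single tumors were not analysed here. Each table that the authors deposited holds only genes with a p-value under 0.05 before adjustment. The authors' columns of log2 fold changes, p-values, adjusted p-values and, for bexarotene, −log10 p and a rescaled log2 fold change (a score) were not used as results. Coordinates are those deposited, which were identical to GENCODE on GRCm38 for 481 of 495 matched genes. A spreadsheet had turned 2 bexarotene gene names into dates, and values of some single genes are not reported here.

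Tables were joined on gene name. The Control mean of the bexarotene table was the mean of the same 4 control tumors under slightly other size factors, so bexarotene means were multiplied by the median ratio of the Control columns (1.00576, range 1.00274 to 1.01153 over 491 genes). Differences used a pseudocount of 1. No test was run, because the bexarotene values used were means and testing listed genes against control would repeat their selection. Intervals for low counts are exact and cover counting error only. Genes named were all on opposite sides of control, the 10 largest differences per direction with a mean of at least 10, genes the paper names, list members, the 5 smallest differences, and in one table the 5 largest changes per direction with at least 50 normalized counts. Members and lists were chosen with earlier results of these data known. Promoters came from RefSeq (14 of 22 genes looked up). Python 3.11.15, numpy 2.4.6, pandas 2.3.3, scipy 1.17.1 and matplotlib 3.10.9 were used, and the scripts were tested on simulated data. Alternatives were other pseudocounts, scalings, thresholds, filters, summaries of the tumors, and leaving out each tumor.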

Additional observations from a re-analysis of the deposited data

Results flagged for a closer look

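Single tumors far from the other 3 of their group were found in 42 of 350 groups of 4 (12%), over 39 genes. They were found by the gap to the nearest tumor relative to the range of the group. About 1 in 20 groups would pass by chance if values followed a normal distribution, which was not tested for these counts. Groups with reads in a single tumor pass by construction, and some genes were named for large differences. The 12% is therefore no evidence of an excess over chance. The value of each such tumor, in normalized counts, follows.

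V-125 replicate 1 was that tumor in 18 groups. Its leukocyte genes, all at the high end, were Slc11a1 (839), Il10ra (713), Btk (191), Cd2 (195), Cd28 (65.4), Pdcd1 (26.6), Icos (34.7), Irf8 (683), Fcgr1 (501), Fcgr3 (234) and Dusp2 (114). The others were Stra6l (93.0), Scgb1b27 (1844), Acaca (2757), Pltp (982), Egfl7 (597) and Klf2 (473) and the chemokine gene Cxcl2 (1.02).

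V-125 replicate 2 stood apart for Aldh1l2 (69.3), Gm6297 (28.5), Ly6k (178) and Ucp3 (86.4), and V-125 replicate 3 for Pcdhga5 (7.94), Acsl3 (1559) and Xbp1 (14323).

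Among control tumors, replicate 1 stood apart in 7 genes, Chil1 (4715), Hspa1b (3327), Cldn7 (5703), Grhl3 (35.7), Ahsg (35.7), Apod (69.2) and Pmvk (927). Control replicate 2 did so for Gm35696 (389.6), Apoc4 (2.31), Pdcd1 (1.16) and Loxl4 (22.0), replicate 3 for Aldh1a3 (39.1), Car6 (12218) and Icos (0.80) and replicate 4 for Elovl6 (1235), Ly6k (5.12) and Aldoa (23.9). Several of these are groups with the other 3 tumors at 0.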

How the results depend on the processing

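The 11 genes on opposite sides of control were the same 11 under every alternative tried, including each V-125 or control tumor left out. Of 97 genes named by rule, the 18 past the criterion kept their direction under each alternative. The criterion itself, with all 4 V-125 tumors on one side of the bexarotene mean, nearly fixes this, so it carries no evidence of its own. Of the 79 others, 39 changed sign under at least 1, all with main differences of at most 0.37 in size (Mfge8). The count of 21 genes past the criterion (15 higher and 6 lower with V-125) became 43 (27 and 16) with a 1.5-fold threshold, and 41 genes, 20 of them lower, had a difference of more than 2 SD of the V-125 tumors. With a pseudocount of 0.1 the lower genes numbered 14. Leaving out 1 V-125 tumor gave 27 to 34 genes, 15 to 25 higher and 8 to 14 lower. Only the remaining tumors then had to lie on one side, so this rise comes in part from the looser rule. Grhl3 (0.95 and 3.82) and Mgarp (−0.34 and −3.85) depended on a pseudocount of 5 or 0.1, and both left the 21 genes at 5. Without rescaling no difference moved by more than 0.00828. The medians of the 10 lists with at least 3 genes listed for both moved by less than the spread of the V-125 tumors under each alternative, but 6 of the 10, cholesterol synthesis, endothelium, matrix, heat shock, hypoxia and interferon response, changed sign under at least 1. Medians of the other lists were not recomputed.

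No paired analysis was possible because bexarotene values of single tumors were not analysed here and the comparison comes from no test. The spread of the bexarotene tumors is unknown, which limits every difference given here. Genes with fewer than about 10 normalized counts rest on few reads.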
